A study of Mus musculus with 4 samples.

Results

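The Polycomb complex genes examined here are Ezh1, Ezh2, Eed and Suz12, which encode the core of Polycomb repressive complex 2 (PRC2), and Bmi1, Ring1, Rnf2, Cbx2, Cbx7 and Cbx8, which encode subunits of Polycomb repressive complex 1 (PRC1). They were chosen by name, and every probe set whose platform annotation names 1 of them alone was taken. All 10 genes were measured, by 28 of the 45101 probe sets of the array and as 10 of the 18193 genes in the whole table. Each gene was represented by its brightest probe set, judged by the mean of all 4 arrays. The cells were haematopoietic stem cells (HSCs) of mouse bone marrow, from animals with a fusion of N-myc with the red fluorescent protein mCherry, and the labels give no strain, age or sex. They were sorted as lineage-negative, Sca-1+, Kit+, CD48- and CD150+ cells, without culture or treatment, and then by mCherry into fractions called N-myc high and N-myc low. Samples labelled mouse 1 and mouse 2 were profiled for each, which gives 2 arrays per group, and all 4 arrays share the fusion allele. The labels do not say whether a mouse number stands for a single animal or a pool, so p-values here measure only the spread between these arrays.

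Polycomb complexes keep genes silent by modifying histones. PRC2 places methyl groups on lysine 27 of histone H3. Its catalytic subunit is either Ezh2, which is typical of dividing cells, or Ezh1, which is also present in resting cells, and both need the scaffold Eed and the subunit Suz12. PRC1 attaches ubiquitin to histone H2A through the ring finger proteins Ring1 and Rnf2 (also called Ring1b), each paired with a partner such as Bmi1. The chromobox proteins Cbx2, Cbx7 and Cbx8 take turns in the canonical complex and read the mark that PRC2 leaves. In blood, Bmi1 is needed for the self-renewal of HSCs and holds down the cell cycle inhibitors encoded by Cdkn2a, while in mouse HSCs Cbx7 is linked to self-renewal and Cbx8 to differentiation.

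Values are log2 probe set intensities after RMA, which makes the distributions of the arrays alike, so they carry no absolute RNA amount and levels are not compared between genes. Mycn, the gene behind the sort, was at 10.48 and 10.39 in N-myc high, against 9.44 and 9.65 in N-myc low HSCs (mouse 1 and mouse 2, the order used throughout). Its difference was 0.89 (limma adjusted p = 0.762). On the other probe sets of Mycn the groups overlapped. The next brightest gave 0.11 (SE 0.24), with 0.32 in mouse 1 and -0.10 in mouse 2. The dimmest gave 1.06 (SE 0.83), with -0.20 in mouse 1 and 2.32 in mouse 2. Averaged over its probe sets, the Mycn difference was 0.69 (limma adjusted p = 0.735). Among markers of the sort, Kit lay between 10.17 and 10.53 and Slamf1, which encodes CD150, between 8.01 and 8.99. Cd48 was at 7.42 and 7.11 in N-myc high, against 9.89 and 9.07 in N-myc low, although the sort selects against its protein. Both arrays of mouse 1 carried Xist (11.38 in N-myc high, against 11.10 in N-myc low) together with the Y-linked Eif2s3y (8.53 in N-myc high, against 8.43 in N-myc low), whereas mouse 2 had Xist at 3.84 and 3.70. The bioB and bioC hybridisation controls were at 10.67 and 10.62 in N-myc high, against 10.84 and 11.51 in N-myc low, so the N-myc low array of mouse 2 stood apart in them, and their part in the results was not tested.

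Most PRC1 genes had higher values in N-myc high HSCs, and the PRC2 genes were split, with Ezh1 higher and Ezh2 lower. None of these differences passed the adjusted threshold in limma (adjusted p under 0.05), where 0 of 18193 genes passed (0.0%) and the members lay between adjusted p = 0.769 and 0.995. At an unadjusted limma p under 0.05, 2 of the 10 genes were higher, Cbx8 and Rnf2, and 0 were lower, against 3.53% of all genes higher and 2.78% lower. Each N-myc high array exceeded each N-myc low array for 5 genes, Ezh1, Ring1, Rnf2, Cbx7 and Cbx8, against 15.6% of all genes. Each was below for 1 gene, Ezh2, against 20.8% of all genes, and the groups overlapped for Eed, Suz12, Bmi1 and Cbx2. The median difference was 0.51 over the 10 genes and -0.03 over all genes. That median depended on the probe sets chosen, since it was 0.16 when the probe sets of each gene were averaged. It was 0.20 without the N-myc low array of mouse 2.

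**Figure D1:**
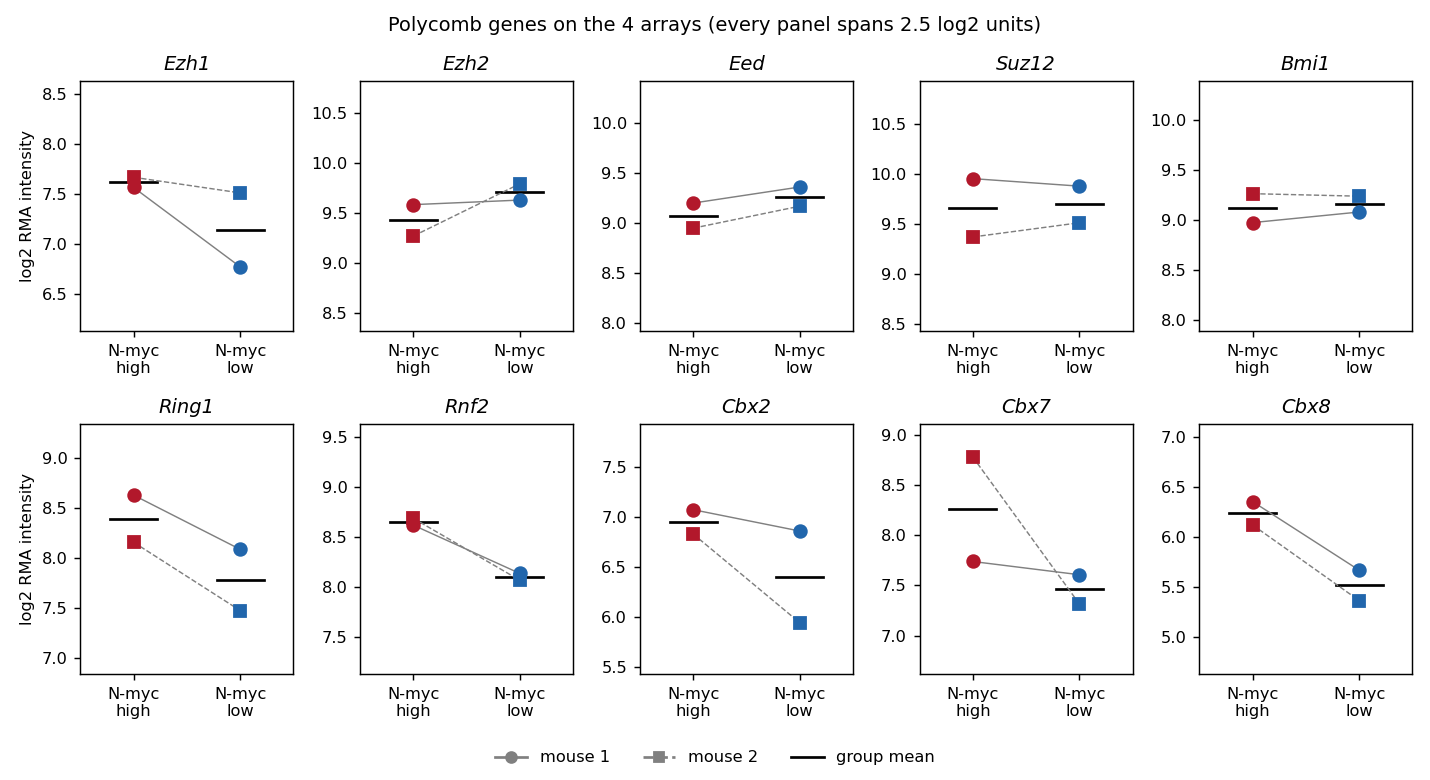
Log2 RMA intensity (vertical axis) of each of the 10 Polycomb genes in N-myc high (red, left) and N-myc low (blue, right) HSCs, with circles and solid lines for mouse 1, squares and dashed lines for mouse 2 and black bars for group means. Both red points lie above both blue points for Ezh1, Ring1, Rnf2, Cbx7 and Cbx8, and below them for Ezh2.

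Among PRC2 genes, Ezh1, the alternative methyltransferase, was at 7.56 and 7.67 in N-myc high, against 6.77 and 7.51 in N-myc low HSCs. The N-myc high arrays were close to each other, and the gap to N-myc low came mostly from mouse 1, with 0.79 there and 0.16 in mouse 2. The difference was 0.47 (SE 0.30, limma adjusted p = 0.822), a 1.39-fold difference with a 95% interval from -0.33 to 1.28 on the log2 scale. It was 0.11 without the N-myc low array of mouse 1. Of the other probe sets of Ezh1, 1449023_a_at had 7.58 and 7.76 in N-myc high, against 7.09 and 7.08 in N-myc low, a difference of 0.58 (SE 0.19) that was present in both mice. Its unadjusted limma p was under 0.05, the smallest of the 4 Ezh1 probe sets, and its adjusted p was 0.775. The other 2 were dimmer, with differences of 0.13 and 0.20 and overlapping groups.

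Ezh2, the main methyltransferase of proliferating cells, was read by 1 probe set, at 9.58 and 9.27 in N-myc high, against 9.63 and 9.79 in N-myc low. Both N-myc high arrays lay below both N-myc low arrays, although in mouse 1 the fractions were only 0.05 apart. The difference was -0.28 (SE 0.21, limma adjusted p = 0.832, 95% interval -0.84 to 0.27), with -0.52 in mouse 2. It was -0.13 without the N-myc high array of mouse 2 and -0.44 without that of mouse 1. Since the paralogs differed in sign, their ratio was taken within each array, a comparison chosen after the values were seen. Relative to Ezh2, Ezh1 was higher in N-myc high than in N-myc low by 0.84 in mouse 1 and 0.68 in mouse 2, and by 0.76 in the mean. With probe set 1449023_a_at for Ezh1 the shift was 0.54 and 1.20. The dim probe set 1429629_at gave -0.19 and 1.15, so the sign in mouse 1 depended on the probe set. With 2 against 2 arrays an exact permutation test has 3 splits, so its smallest two-sided p is 0.333, the value it gave for 1418290_a_at (the brightest) and 1449023_a_at. It gave 0.667 for 1429630_at and 1.0 for 1429629_at.

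Eed, the scaffold that binds the methylated histone, was at 9.20 and 8.95 in N-myc high, against 9.36 and 9.17 in N-myc low. The difference of -0.19 was about as large as its SE of 0.20 (limma adjusted p = 0.882), and the groups overlapped. Its other probe set, 1453830_at, was dim at 3.17 and 3.37 in N-myc high, against 3.04 and 3.15 in N-myc low, with only 15.3% of probe sets dimmer, and had the opposite sign. Suz12, which PRC2 needs for its stability, was at 9.95 and 9.37 in N-myc high, against 9.87 and 9.51 in N-myc low. Here the mice differed more than the fractions, with mouse 1 above mouse 2 by 0.58 in N-myc high, against 0.37 in N-myc low. The difference between fractions was -0.03 (SE 0.29, limma adjusted p = 0.995, 95% interval -0.79 to 0.73), and its sign turned with the array left out. Suz12 had 6 probe sets, of which 5 gave negative differences, from -0.51 to -0.03, and 1 gave 0.10. The N-myc high arrays lay below the N-myc low arrays on 3 of them, 1427253_s_at, 1449661_at and 1452364_at. The last was at 7.42 and 6.95 in N-myc high, against 7.66 and 7.72 in N-myc low (difference -0.51, SE 0.24, limma adjusted p = 0.804). It shares its source record with 1427253_s_at, so these probe sets are not independent readings.

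Among PRC1 genes, both ubiquitin ligases had higher values in N-myc high HSCs. Rnf2 was at 8.61 and 8.68 in N-myc high, against 8.13 and 8.06 in N-myc low, with the arrays of each group within 0.07 of each other. Its difference was 0.55 (SE 0.17, limma adjusted p = 0.779), a 1.47-fold difference with a 95% interval from 0.09 to 1.02 and between 0.52 and 0.59 whichever array was left out. The other 4 probe sets of Rnf2 did not repeat this pattern. The next brightest, 1451519_at, from the same source record, was at 7.62 and 8.12 in N-myc high, against 7.75 and 8.69 in N-myc low, a difference of -0.35 (SE 0.40). The remaining 3 had positive differences of 0.58, 0.14 and 0.09 with overlapping groups, and each had a negative difference in mouse 1. Of these, 1 ends in _x_at and 1 in _s_at. The array's maker gives these suffixes to probe sets whose probes can match more than 1 transcript. Probe sets of other members end in _s_at too, among them the brightest of Suz12 (1420022_s_at) and 1420039_s_at of Cbx7. Averaged over its 5 probe sets, the Rnf2 difference was 0.20 (limma adjusted p = 0.892).

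Ring1, the paralog of Rnf2, was read by 1 probe set, at 8.62 and 8.15 in N-myc high, against 8.08 and 7.47 in N-myc low. Within each mouse the N-myc high array was higher, by 0.54 in mouse 1 and 0.68 in mouse 2, and mouse 1 exceeded mouse 2 in both fractions. The difference was 0.61 (SE 0.31, limma adjusted p = 0.806), a 1.53-fold difference with a 95% interval from -0.21 to 1.43. It was 0.31 without the N-myc low array of mouse 2, 0.38 without the N-myc high array of mouse 1 and 0.92 without the N-myc low array of mouse 1. With the mouse as a block its unadjusted limma p came under 0.05, while the adjusted p was 0.781. Bmi1, the partner of these ligases, was at 8.97 and 9.26 in N-myc high, against 9.08 and 9.24 in N-myc low. The groups overlapped, and the difference of -0.04 (SE 0.20, limma adjusted p = 0.985) had a 95% interval from -0.58 to 0.50. Its other probe set, 1448733_at, was at 6.84 and 7.15 in N-myc high, against 7.19 and 7.20 in N-myc low, with a difference of -0.20 (SE 0.21).

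The chromobox genes all had positive differences on their brightest probe sets. Cbx8 had the smallest p of the 10 genes, with 6.36 and 6.12 in N-myc high, against 5.67 and 5.37 in N-myc low. The gap was 0.69 in mouse 1 and 0.76 in mouse 2, and the mean difference was 0.72 (SE 0.21, limma adjusted p = 0.769), a 1.65-fold difference with a 95% interval from 0.15 to 1.29. Its other probe set, 1419198_at, comes from the same source record, yet it lay the other way, at 5.71 and 5.67 in N-myc high, against 5.80 and 6.04 in N-myc low. That difference was -0.23 (SE 0.20), and the mean of the pair gave 0.25 (limma adjusted p = 0.811). Cbx8 was also the 1 member in the dimmer part of the table, with 46.2% of genes below it.

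Cbx7 had the largest difference of the 10 genes, 0.80 (SE 0.40, limma adjusted p = 0.804), a 1.74-fold difference with a 95% interval from -0.26 to 1.86. It was at 7.74 and 8.78 in N-myc high, against 7.61 and 7.31 in N-myc low, so the N-myc high array of mouse 2 stood above the other 3. Without that array the difference was 0.28, and without the N-myc high array of mouse 1 it was 1.32. The probe set 1420039_s_at, from the same source record, had 7.35 and 8.31 in N-myc high, against 7.41 and 6.05 in N-myc low, again with the gap in mouse 2. The third, 1433557_at, had 7.52 and 7.62 in N-myc high, against 6.66 and 7.58 in N-myc low, with the gap in mouse 1. All 3 probe sets of Cbx7 thus gave positive differences, from 0.45 to 1.10, while the mouse that carried them varied. Averaged over them, the difference was 0.78 (limma adjusted p = 0.735).

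Cbx2 was at 7.07 and 6.83 in N-myc high, against 6.86 and 5.94 in N-myc low. The groups overlapped by a narrow margin, and the N-myc low array of mouse 2 was the lowest. The difference was 0.55 (SE 0.36, limma adjusted p = 0.826), but 0.09 without that array and 1.01 without the N-myc low array of mouse 1. The second probe set, 1422059_at, had 6.89 and 5.83 in N-myc high, against 6.61 and 6.75 in N-myc low, a difference of -0.32 (SE 0.40). In the RefSeq order of genes, Cbx2 and Cbx8 are neighbours on chromosome 11, and Ezh1 and Suz12 lie on the same chromosome.

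**Figure D2:**
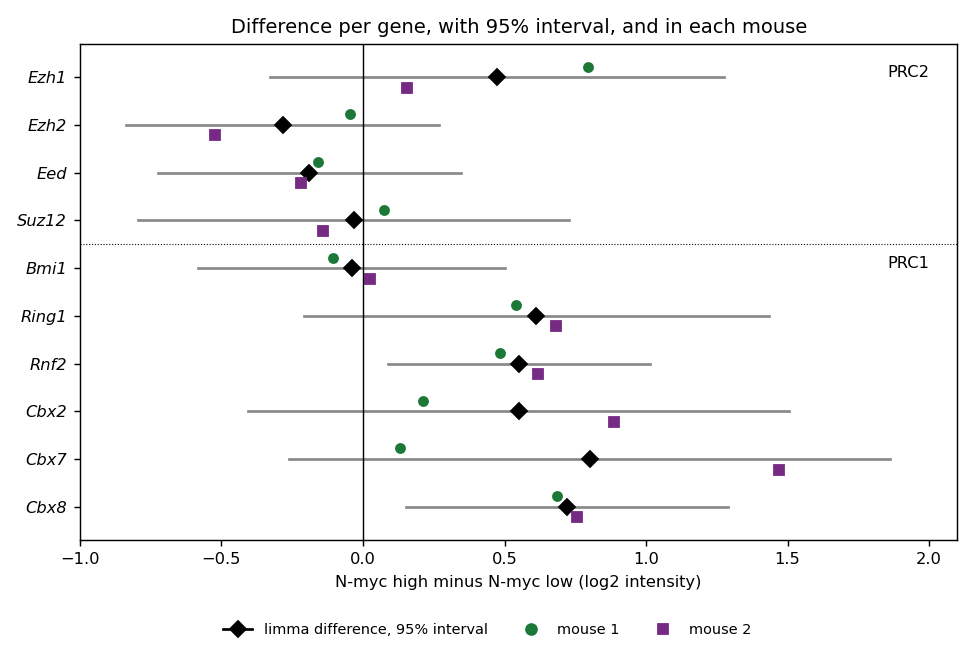
Difference in log2 intensity of N-myc high minus N-myc low (horizontal axis) for each gene, as a black diamond with the 95% interval of the limma fit and, by circle and square, within mouse 1 and mouse 2. The intervals of Rnf2 (0.09 to 1.02) and Cbx8 (0.15 to 1.29) lie above 0 before adjustment, and those of the other 8 genes include 0.

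By complex, the median difference of the 6 PRC1 genes was 0.58 (0.35 in mouse 1 and 0.72 in mouse 2), and 5 of the 6 were positive, against 45.3% of all genes. The 4 PRC2 genes had a median of -0.11, and 1 of the 4, Ezh1, was positive. The PRC1 median lay between 0.41 and 0.90 with 1 array left out and at 0.23 over the mean of probe sets. The PRC2 median lay between -0.32 and 0.10 with 1 array left out. In the same arrays, the 12 measured of 15 HSC marker genes had a median of 0.92 and a mean log2 level of 8.72 and 8.93 in N-myc high, against 8.03 and 7.95 in N-myc low. That median was 0.53 without the N-myc low array of mouse 2. The 11 progenitor markers had a median of -0.65, with 8.43 and 8.46 in N-myc high, against 9.13 and 8.95 in N-myc low. Of these, 10 had negative differences, while Flt3, a receptor gene of multipotent progenitors, went the other way with 1.20 (limma adjusted p = 0.769). The part of the HSC and progenitor marker differences in the Polycomb differences was not tested. In RNA of a sorted fraction, more cells with a transcript and more transcript per cell cannot be told apart.

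Markers of other cell types differed in both directions. At an unadjusted limma p under 0.05, 2 of 7 macrophage markers (C1qb and Mrc1) and 2 of 6 B cell markers (Cd79a and Vpreb1) were higher, against 3.53% of all genes. In the same count, 2 of 5 megakaryocyte markers and 1 of 6 erythroid markers were lower, against 2.78% of all genes. The count was 0 for 6 T and NK cell, 6 neutrophil and 7 endothelial and stromal markers. All 6 neutrophil markers had negative differences, with a median of -0.20 (-0.36 to -0.07 with 1 array left out). For 4 of them both N-myc high arrays lay below both N-myc low arrays, against 20.8% of all genes. The mean level of these neutrophil markers was high on every array, at 10.60 and 10.35 in N-myc high, against 10.78 and 10.90 in N-myc low. The erythroid and megakaryocyte medians were -0.53 and -0.47, with 1 positive difference in each list. With 1 array left out they ran from -0.82 to -0.32 and from -0.64 to -0.26. The mean level of macrophage markers was 5.95 and 5.68 in N-myc high, against 5.22 and 4.75 in N-myc low. Of the 7, 6 had positive differences and 1 a negative one, with a median of 0.27. C1qb was at 8.24 and 8.48 in N-myc high, against 5.76 and 5.64 in N-myc low. Its difference of 2.66 had the smallest p of all genes (limma adjusted p = 0.671). Mrc1 gave 2.26, with 0.73 in mouse 1 and 3.80 in mouse 2. The B cell markers were split, with 3 positive and 3 negative differences, among them Blk at -0.52, and a median of -0.10. Their mean level was 4.80 and 4.72 in N-myc high, against 4.22 and 4.59 in N-myc low, with Vpreb1 alone at 8.29 and 6.51 in N-myc high, against 4.14 and 5.77 in N-myc low. Their part in the Polycomb differences was not tested.

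**Figure D3:**
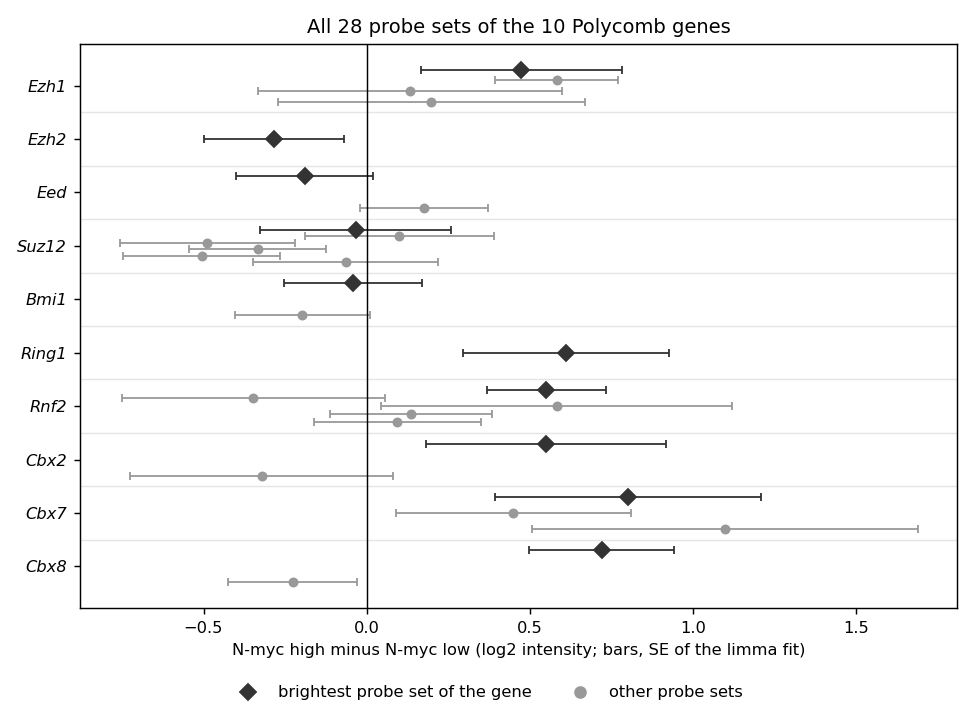
Difference in log2 intensity of N-myc high minus N-myc low (horizontal axis) for all 28 probe sets, with the SE of the limma fit as bars, dark diamonds for the brightest probe set of each gene and grey circles for the others. Eed, Suz12, Rnf2, Cbx2 and Cbx8 have probe sets on both sides of 0.

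Over all 28 probe sets the tilt towards N-myc high was smaller than over the brightest ones. The median difference was 0.12 here, against -0.04 over all probe sets with 1 gene name, and within the mice it was -0.03 (mouse 1) and 0.03 (mouse 2). The N-myc high arrays lay above the N-myc low arrays on 7 probe sets, against 15.4% of all, and below on 6, against 20.8%. An unadjusted limma p under 0.05 was reached by 3 with higher values, on Ezh1, Rnf2 and Cbx8, and by 0 with lower ones, against 3.36% and 2.96% of all. Of the 8 genes with more than 1 probe set, 5 had both signs. Ezh1 and Cbx7 were positive on every probe set and Bmi1 was negative on both. Averaged over probe sets, Cbx7 and Cbx8 had both N-myc high arrays on top, while the groups of Ezh1 and Rnf2 came to overlap. Ring1 and Ezh2 have 1 probe set each, so averaging could not change them. With Ring1 counted, 3 genes were on top, against 15.2% of all genes, and 1, Ezh2, was below, against 21.9%.

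Promoter windows show how the genes are built around their starts. RefSeq (GRCm38.p6) gave a window of 250 bases before to 50 after the start for 9 of the 10 genes, all but Cbx2. These windows are rich in CpG, with 17 to 41 CpG dinucleotides and a median of 30, against a median of 7 over 32851 windows of the same length. The letters CACGTG, the core of the E-box that dimers of Myc proteins and Max bind, were searched on both strands, on which they read the same. They were in 2 of the 9 windows, those of Cbx8 and Bmi1, and in 7.15% of all windows. The 250 bases before the start of these genes are shown, with CACGTG in capitals, as the 2 matches among the members. The stretch of Cbx8 is chr11:119040914-119041163 on the minus strand, with the motif starting 98 bases before the gene's start. That of Bmi1 is chr2:18676768-18677017 on the plus strand, with the motif starting 215 bases before.
Cbx8: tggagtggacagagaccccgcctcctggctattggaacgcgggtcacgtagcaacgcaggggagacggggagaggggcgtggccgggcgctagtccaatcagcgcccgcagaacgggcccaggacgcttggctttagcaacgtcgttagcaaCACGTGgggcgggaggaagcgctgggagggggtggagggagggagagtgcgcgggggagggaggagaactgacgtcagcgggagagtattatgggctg
Bmi1: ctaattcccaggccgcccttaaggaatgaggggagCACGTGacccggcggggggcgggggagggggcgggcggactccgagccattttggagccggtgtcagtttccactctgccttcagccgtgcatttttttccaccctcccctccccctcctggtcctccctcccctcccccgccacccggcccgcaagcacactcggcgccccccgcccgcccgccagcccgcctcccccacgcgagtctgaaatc
These matches are letters in a window, and the arrays do not measure binding there. The part of these letters in the Cbx8 and Bmi1 values was not tested.

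The E2F letters TTTCGCGC and TTTGGCGC, which mark many genes of dividing cells, were searched on both strands and do not overlap CACGTG. They were in 1 of the 9 windows, that of Ezh2, and in 0.813% of all windows. The 30 bases around it, chr6:47595016-47595045 on the minus strand, are shown as the 1 match among the members, in capitals. The arrays do not measure binding there, and the part of these letters in the Ezh2 values was not tested.
Ezh2: ggcgattgggttgctgcgTTTGGCGCtcgg
Genes of proliferation, which often share such sites, had a median difference of -0.06 over 20 measured members, with 0 higher and 1 lower at an unadjusted limma p under 0.05, against 3.53% and 2.78% of all genes. Of the 20, 15 had negative and 5 had positive differences, where 45.3% of all genes were positive. Both N-myc high arrays lay below both N-myc low arrays for 6, against 20.8% of all genes, and above for 2, against 15.6%. The median lay between -0.13 and -0.02 with 1 array left out, nearest 0 without the N-myc high array of mouse 2. The gene lower at that p was Birc5, the mitotic survivin gene. It was at 9.19 and 9.22 in N-myc high, against 9.72 and 9.66 in N-myc low (difference -0.48, SE 0.17, limma adjusted p = 0.779). Bub1, a spindle checkpoint kinase, gave -1.02 and the thymidylate synthase gene Tyms 0.45, and each had at least 1 probe set of opposite sign.

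The genes named from the wider Polycomb machinery are the 3 of smallest p in each list, so their values do not describe the lists. In lists this short, a count of 1 gene cannot be told apart from the share over all genes. The 9 accessory subunits of PRC2 had a median difference of 0.10, with 1 gene higher and 0 lower at an unadjusted limma p under 0.05, against 3.53% and 2.78% of all genes. That gene was Phf1, a Polycomb-like protein that helps PRC2 onto chromatin. Phf1 was at 6.65 and 7.35 in N-myc high, against 5.27 and 6.10 in N-myc low. Its difference of 1.32 (SE 0.40, limma adjusted p = 0.769) was 1.38 in mouse 1 and 1.25 in mouse 2 and rested on 1 probe set. Its relative Phf19 gave 0.32 and Epop, which links PRC2 to elongin, -0.75 with overlapping groups. The Epop value was -0.07 without the N-myc low array of mouse 1 and -1.44 without that of mouse 2.

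The 21 measured of 23 other PRC1 subunits had a median of 0.04, with 1 higher and 0 lower in the same count. Cbx6, a further chromobox gene, was the higher one, at 10.39 and 10.46 in N-myc high, against 9.85 and 9.73 in N-myc low. The difference was 0.64 (SE 0.18, limma adjusted p = 0.769), and its second probe set gave 0.52. Pcgf2 and Pcgf3, paralogs of Bmi1, gave 0.63 and 0.68, but Pcgf3 had 2 probe sets of opposite sign and was -0.20 when they were averaged.

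The 10 measured of 11 genes of the PR-DUB complex, which removes ubiquitin from histone H2A, had a median of 0.01, with 1 higher and 0 lower, against 3.53% and 2.78% of all genes. The sign of that median turned with the array left out, from -0.07 without the N-myc high array of mouse 2 to 0.21 without that of mouse 1. Its scaffold gene Asxl2 was at 8.91 and 9.10 in N-myc high, against 8.26 and 8.21 in N-myc low. The difference was 0.77 (SE 0.18, limma adjusted p = 0.762), although 3 of the other 4 Asxl2 probe sets went the opposite way. The deubiquitinase gene Bap1 gave 0.74 and the demethylase gene Kdm1b 0.33.

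The 12 measured of 13 genes that oppose Polycomb, H3K27 demethylases and trithorax methyltransferases with their partners, had a median of -0.23. It was -0.11 without the N-myc low array of mouse 2 and -0.13 without the N-myc high array of mouse 1. The N-myc high arrays lay below the N-myc low arrays for 6 of them, against 20.8% of all genes, and above for 0, against 15.6%. None reached an unadjusted limma p under 0.05. The smallest p belonged to Ash2l, a shared subunit of these methyltransferases, at 8.71 and 8.59 in N-myc high, against 9.09 and 8.997 in N-myc low (difference -0.39, SE 0.18, limma adjusted p = 0.793). The demethylase gene Kdm6a gave -0.48 and the methyltransferase gene Setd1b -0.31, each with a probe set of opposite sign.

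Genes that Polycomb holds silent in many cell types had a median of -0.08 over 27 measured of 29, with 0 higher and 1 lower at an unadjusted limma p under 0.05, against 3.53% and 2.78% of all genes, so the count was near that of the whole table. The median lay between -0.15 and -0.02 with 1 array left out, nearest 0 without the N-myc high array of mouse 1. As a list these genes were dim, with a mean level of 3.95 and 4.13 in N-myc high, against 4.04 and 4.12 in N-myc low. The median over all probe sets of an array was 5.26 to 5.32. How many of these genes exceed background is not known, so the list median and counts may not measure expression. The lower gene was Cdkn2a, which encodes the cell cycle inhibitors p16Ink4a and p19Arf. It was dim, at 3.79 and 4.02 in N-myc high, against 4.37 and 4.69 in N-myc low, with 26.6% of genes dimmer. Its difference was -0.62 (SE 0.22, limma adjusted p = 0.779), and without detection calls it is not known whether these values exceed background. The developmental factor genes Hoxb13 and Pax6 gave 0.50 and -0.32. Pax6 had 5 probe sets, of which 1 had the opposite sign (0.38), and was -0.07 when they were averaged.

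**Figure D4:**
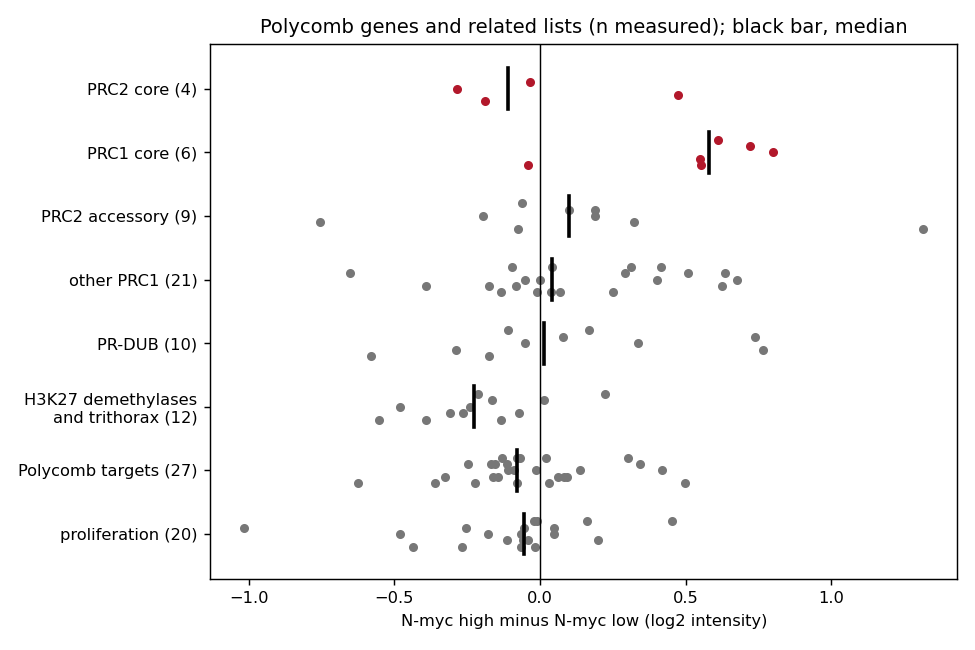
Difference in log2 intensity of N-myc high minus N-myc low (horizontal axis) for each measured gene (points) of the PRC2 and PRC1 core (red) and of 6 related lists (grey), with black bars for medians. The PRC1 core has its median at 0.58, and the medians of the related lists run from -0.23 for demethylases and trithorax genes to 0.10 for PRC2 accessory subunits.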

How the data were processed

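The authors deposited log2 intensities, 1 per probe set and array. Per the submitters' processing notes RMA made them, and affy and limma are named with it, with no version. Per the labels' protocols, the RNA was amplified before it was labelled with biotin. A genome build or a filter is not given in the sources used here. Without detection calls the background under a dim value is unknown, and 4 arrays limit the precision. Of 45101 probe sets, the platform annotation gave 1 gene name to 34945 and several to 932, 9160 were unnamed here and 64 were controls.

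limma 3.58.1 (lmFit, eBayes) in R 4.3.3 compared the groups over 18193 genes and, separately, over 34945 probe sets, with Benjamini-Hochberg adjustment over each table and no filter on dim values. SE are those of the moderated fit. Simulated data for this comparison had 18193 genes, 200 of them changed. The share of changed genes recovered was 0% for changes of 1 (log2) and 26.7% for changes of 2. In that setting, differences of the size seen in the Polycomb genes were not callable. Other shares of changed genes were not simulated. Members, lists and tests were chosen with earlier results of these data known. Besides the 10 genes and Mycn, the 3 genes of smallest p were named from each related list; others named (Kit, Slamf1, Cd48, Xist, Eif2s3y, Blk and the cell type markers that passed an unadjusted p) check the arrays. Sample titles carry a mouse number, which pairs the arrays; deviations of same-numbered arrays correlated at r = 0.0492 across genes. The alternatives averaged probe sets, blocked on the mouse, dropped dimmer genes, used an intensity trend, centred arrays and left out each array.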

Additional observations from a re-analysis of the deposited data

How the results depend on the processing

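The count of Polycomb genes past the adjusted threshold was 0 in limma under every alternative run, and so was that of all genes. The number at an unadjusted limma p under 0.05 was 2 in the fit reported, but 1 with probe sets averaged (Cbx7 in place of Cbx8 and Rnf2), 1 without the dimmer 50% of genes, where Cbx8 dropped out, 1 with an intensity trend, and 0 to 2 with 1 array left out. With the mouse as a replicate block it was 2, Cbx8 and Ring1 in place of Cbx8 and Rnf2, and the block moved no adjusted call. The 3 probe sets at that p became 0 with an intensity trend and 0 to 4 with 1 array left out. The median difference of 0.51 was 0.16 with probe sets averaged and 0.20 to 0.40 with 1 array left out. Suz12 ran from -0.32 to 0.26 and Bmi1 from -0.18 to 0.10 with 1 array left out. Suz12 turned positive without N-myc high of mouse 2 (0.26) and without N-myc low of mouse 1 (0.15), and Bmi1 without N-myc high of mouse 1 (0.10) and without N-myc low of mouse 2 (0.04). The cause was not tested. In the same way Eed ran from -0.32 to -0.06, Kdm6a from -0.76 to -0.21, Bub1 from -1.55 to -0.48 and Bap1 from 0.43 to 1.05, and the medians of PRC2 accessory and other PRC1 subunits from 0.03 to 0.18 and from 0.02 to 0.17. Pcgf3 was -0.20 with probe sets averaged. The 6 related lists, with 9, 21, 10, 12, 27 and 20 measured genes, held 5 genes at an unadjusted limma p under 0.05. Over all 18193 genes the count was 1148, with 3.53% higher and 2.78% lower. Without the dimmer genes the counts were 3 in the lists and 606 in all genes, where fewer were tested. With 2 arrays per group, differences such as those of Ring1 or Cbx7 could not be separated from 0.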
